A study of Prunus dulcis and Malus domestica and Olea europaea with 8 samples.

Results

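The apple profile is the set of miRNA genes that received at least 1 raw count in the small RNA library of apple (Malus domestica), 1 of 8 plant foods that were sequenced and counted against the miRNA genes annotated in peach. It held counts on 97 of the 209 annotated genes, and these fell into 43 of the 82 families counted in any food, a family being all genes with the same number after MIR. The other 7 libraries came from pear (Pyrus communis), almond (Prunus dulcis), orange (Citrus sinensis), olive (Olea europaea), spinach (Spinacia oleracea), tomato (Solanum lycopersicum) and walnut (Juglans regia). Peach, apple, pear and almond belong to the rose family, and pear shares its tribe with apple. All 8 were untreated foods bought in shops, and the labels give neither cultivar, ripeness nor the number of fruits behind a library. With 1 library for each food, a difference between foods and a difference between libraries cannot be told apart, and no value below carries a test across replicates.

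Plant miRNAs are short RNAs cut from hairpin precursors by DICER-LIKE1 and loaded onto ARGONAUTE1, where they guide the cleavage or repression of mRNAs that pair with them almost perfectly. Families shared by most flowering plants mainly target transcription factors that set organ growth, phase change and hormone response, and a smaller set adjusts the uptake of sulfate, phosphate and copper. In fleshy fruits several of these families are known for parts in fruit set, growth and ripening.

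Apple was the most deeply counted library, with 212021 miRNA counts against 39249 in walnut to 108997 in pear and a median of 67019 over the 7 other foods. A value is given below as the share of its library's miRNA counts, with an exact Clopper-Pearson 95% interval. The reads carried no molecular identifiers, so intervals cover counting error only. In apple 1 count was 0.000472% of the library. For a fold, a gene without counts was set to 0.00141%, the share of 3 counts, while its exact upper limit was 0.00174%. The factors deposited with the normalized table place every apple value 4.22-fold lower against pear than shares do. They make MIR396 (ENSRNA050003821) equal in apple and pear, and 4.22 is the share ratio of that gene. With these factors 9 of 34 named genes turned direction against pear. A share above pear by less than 4.22-fold holds as a share of the library only.

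Sequences of the mature miRNA are shown for a pair of miR482 genes because the first led the family in apple, pear, walnut and spinach, and the second led it in almond, orange and tomato. The seed, bases 2 to 8 from the 5′ end, is in capitals.
miR482c-5p: gGAAUGGGcuguuugggaug
miR482f: uCUUUCCUacuccacccauucc
The first comes from MIR482c (peach build NCBIv2, G3:16316472-16316592, plus strand), which had 16318 counts in apple, 7818 in pear and 2512 in walnut. Counts were made per hairpin gene, so they do not tell the 5p arm printed here from the 3p arm. The second comes from MIR482f (G1:30625526-30625670, plus strand), which had 0 counts in apple, 3 in pear, 6430 in almond and 3384 in tomato. The miR482 family, which targets NLR immune receptor mRNAs, took 7.70% of apple counts and 7.18% of pear counts, against 16.9% in almond and 3.73% in tomato.

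The counts of apple sat on few genes. The highest gene held 36.4% of the library, the 2 highest 70.6%, the 4 highest 86.8% and the 8 highest 96.3%. The 4 highest genes of pear held 71.4%, those of almond 47.9%, and those of the 5 remaining foods 63.5% to 74.9%. It took 5 genes to reach 90% of the apple counts, against 7 in tomato, 8 in spinach, 9 in pear and olive, 12 in orange and walnut and 15 in almond. The effective number of genes, the exponential of the Shannon entropy of the shares, was 5.61 in apple, 8.09 in pear and between 7.67 and 17.8 over all 7 other foods. By its 4 highest genes, by the genes needed for 90% and by the effective number, apple had the most uneven of the 8 profiles. Other measures did not put apple first. The highest gene alone held 45.7% in pear, 43.5% in orange and 38.1% in spinach, and less than in apple in the other foods. To reach 99% took 20 genes in apple, 17 in spinach, 19 in tomato and 25 to 48 in the rest.

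**Figure D1:**
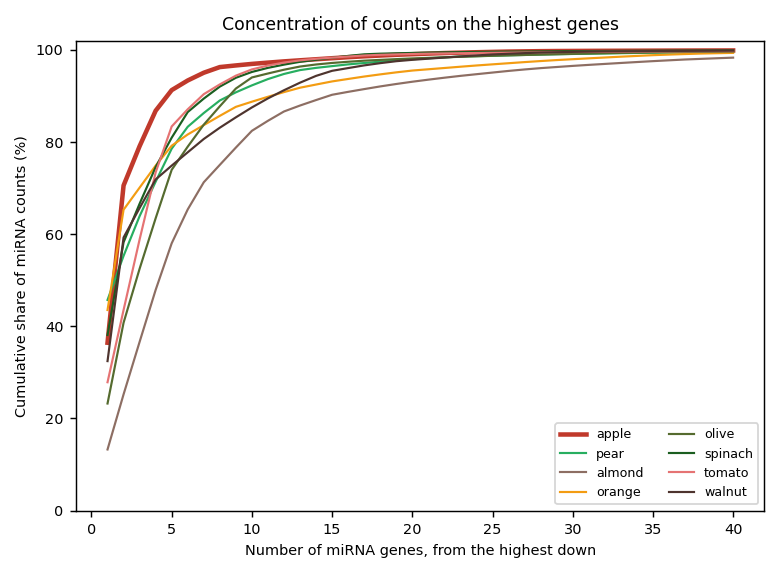
Cumulative share of each library's miRNA counts (%, y axis) against the number of genes taken from the highest down (x axis), 1 line per food, apple drawn thick. The apple line lies above the other 7 at the 4 highest genes, where it reaches 86.8%, and at the 8 highest, where it reaches 96.3%.

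Apple did not show more genes for its greater depth. Thinned on paper to the 39249 counts of walnut, the apple library would be expected to show 66.1 genes, beside 64.5 in spinach, 68.0 in walnut, 86.4 in pear, 87.1 in tomato, 87.4 in orange, 90.7 in olive and 116.7 in almond. At the depth of pear, apple would be expected to show 84.7 genes, where pear showed 105. Of the 97 apple genes, 68 had at least 3 counts, 46 had at least 10, and 29 rested on 1 or 2 counts.

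Behind the 4 highest genes, which were MIR396 (ENSRNA050003821), MIR162, MIR159 (ENSRNA049996936) and MIR482c, 27979 counts remained, or 13.2% of the library. MIR168, whose miRNA targets ARGONAUTE1 itself, led them (G5:1588871-1589039, minus strand). It had 9484 counts, 4.47% (4.39 to 4.56), against 2.98% in pear, a median of 2.12% over the other foods and 11.7% in olive. With the deposited factors the gene was below both pear (-1.49 on the log2 scale) and the median (-1.32). MIR168, MIR162, whose target is DICER-LIKE1, and MIR403, whose target is ARGONAUTE2 in Arabidopsis, act on the small RNA machinery. Together this group held 38.8% of apple counts, 49.0% of pear counts and a median of 12.6% over the 7 other foods, pear included. Most of the total was MIR162, at 34.1% in apple and 45.7% in pear, while MIR403 was at 0.224% and 0.301%. In apple only this group and the miR396 family, which restrains growth-regulating factors and held 36.6%, exceeded 10% of the library.

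MIR164a (G6:26574904-26575067, plus strand), a member of the family that limits NAC transcription factors, followed with 4442 counts. Its share was 2.10% (2.03 to 2.16) in apple, 1.37% in pear, 9.97% in tomato and 0.953% in orange. Olive, spinach and walnut had 6, 22 and 7 counts, and almond had 0. Apple was thus one of 4 foods in which this gene was abundant, and tomato was the highest of them. Summed over the miR164 family, orange, led by MIR164c, was at 4.05% and above apple at 2.12%.

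Of the miR166 family, which keeps the HD-ZIP III factors of leaf polarity and vasculature in check, apple held 3.29%. This was below olive at 41.5% and pear at 13.1%, which was itself the median of the 7 other foods, and above almond at 2.08%. MIR166d (G2:23268458-23268623, plus strand) had 3566 counts in apple, 1.68%, against 0.839% in pear and 4.77% in olive. MIR166b (G8:20544987-20545082, plus strand) had 2598 counts, 1.23% (1.18 to 1.27), against 7.47% in pear and 15.7% in tomato. The genes of this family give nearly the same mature miRNA, so how the counting divided reads among them is uncertain.

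**Figure D2:**
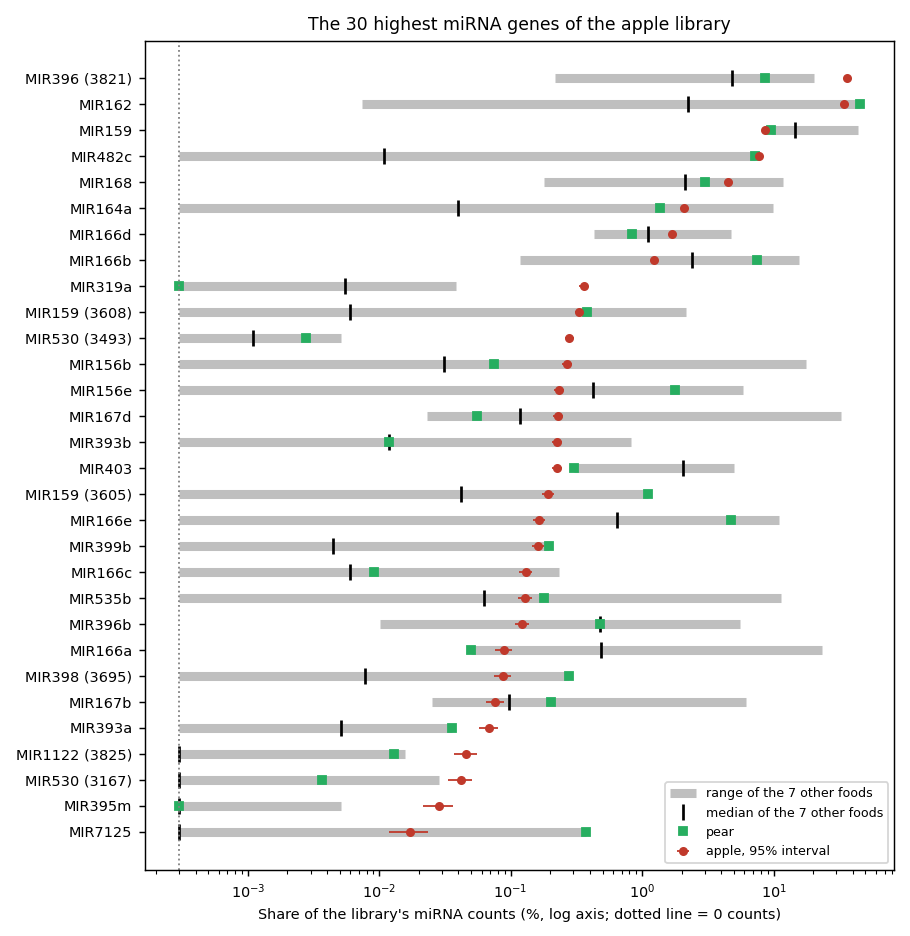
The 30 highest genes of apple, each with its share of the library's miRNA counts (%, log axis) in apple, in pear and in the 6 other foods. Apple points fall from 36.4% for MIR396, and MIR319a and MIR530 (ENSRNA050003493), at 0.358% and 0.279%, lie far to the right of every other food.

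A gene was called highest in apple where the lower bound of its apple interval lay above the upper bound of all 7 other foods. This held for 7 of the 187 genes counted anywhere, 3.74%, while the same rule gave 3 genes in spinach, 4 in tomato, 10 in pear, 12 in walnut, 13 in olive, 16 in orange and 29 in almond. Only spinach and tomato had fewer than apple. The 7 were MIR396 (ENSRNA050003821), MIR482c, MIR319a, MIR530 (ENSRNA050003493), MIR393a, MIR1122 and MIR395m. The count rose to 10 when pear was left out of the comparison. It was 0 with the scaling factors deposited with the normalized table and 12 when the 3 highest genes of each library were taken out of the totals. The deposited factors set MIR396 (ENSRNA050003821) level with pear and with the median food (0 on the log2 scale). That gene could therefore not be called with them.

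As a share of the library, MIR319a was far above every other food in apple. With the deposited factors it was not called highest, though it stayed above the median food (2.76 on the log2 scale). The miRNA miR319 targets TCP factors that govern leaf and petal growth. The gene (G5:17215362-17215601, plus strand) had 759 counts in apple, 0.358% (0.333 to 0.384), and 0 in pear and almond. It had 1 count in orange, 3 in walnut, 5 in tomato, 10 in spinach and 26 in olive, where the share was 0.0384%. The median of the 7 others was 0.00552%, which apple exceeded 64.9-fold. Against pear the difference was 130-fold with pear set to 3 counts, and the exact lower limit was 105.5-fold. The sister gene MIR319b had 4 counts in apple and 0 in every other library.

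MIR530 (ENSRNA050003493, G1:43092266-43092467, minus strand) had 592 counts in apple, 0.279% (0.257 to 0.303). It had 3 counts in pear, 2 in walnut, 1 each in almond and tomato and 0 in orange, olive and spinach. The apple share was 101 times that of pear (exact interval 34.5 to 493), and the highest other share was the 0.00510% of walnut. A second gene of that name, ENSRNA050003167, had 88 counts in apple and 4 in pear, a ratio of 11.3, and reached 0.0284% in orange. The whole miR530 family took 0.321% of apple counts, 0.0174% of pear counts and 0.250% of walnut counts, so walnut came near apple through a different gene.

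The miR393 family silences the TIR1 and AFB auxin receptors. MIR393b (G2:28654018-28654122, minus strand) had 478 counts in apple, 0.225%, against 0.0119% in pear, a ratio of 18.9 (exact interval 10.9 to 35.8). Olive was higher than apple at 0.819%, and almond and walnut had none. MIR393a had 145 counts in apple, 0.0684% (0.0577 to 0.0805), 0.0358% in pear, 0.0218% in spinach and less in the other foods, with 0 in almond and olive. Both shares were higher in apple than in pear, but with the deposited factors MIR393a was lower (-1.14 on the log2 scale) while MIR393b was still higher.

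Of the remaining pair, MIR1122 had 97 counts in apple, 0.0458%, with 0.0128% in pear, 0.0158% in almond and no counts in the 5 foods outside the rose family. MIR395m, of the family that adjusts sulfate transport and assimilation, had 60 counts in apple, 0.0283%, 0 in pear and no more than 0.00510% in walnut. As a scale for low counts beside a very high one, MIR482c had 16318 counts in apple and 0 in tomato, 2 in olive and 6 each in orange and spinach, at most 0.0368% of the apple count in these 4 foods. Almond had 24, and walnut and pear carried the gene at 2512 and 7818 counts. Depth differed, and as a share MIR482c was only 0.10 above pear in apple on the log2 scale. With the deposited factors it was below pear (-1.98). Whether reads passed between libraries was not tested.

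By the mirrored rule 3 of the 187 genes, 1.60%, were lowest in apple, and this became 5 when pear was left out. MIR159 (ENSRNA049996936), of the family that targets GAMYB factors, was the third gene of apple at 8.53%. All 7 other foods lay above it, from 9.57% to 43.5% with a median of 14.6%. MIR403 (G1:9127091-9127208, plus strand) had 475 counts, 0.224% (0.204 to 0.245), against 0.301% in pear to 5.03% in olive. Its median of 2.04% elsewhere was 9.09 times the apple share. The last was another MIR159 (ENSRNA050003181), with 6 counts in apple and 86 in pear. A further gene of this name (ENSRNA050003608, G2:22490854-22491049, plus strand) was not lowest, with 701 counts, 0.331%, against 0.383% in pear, 2.17% in almond and at most 0.0104% in the others. With edgeR's TMM scaling, with DESeq2's poscounts factors or without the highest genes, no gene was lowest in apple, so these calls depended on the scaling.

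Summed by family, 3 of 82 were highest in apple, 3.66%, and 4 of 82 were lowest, 4.88%. The highest were miR396, miR319 and miR1122, and 6 families met the rule when pear was left out. With the deposited factors 0 met it, and those factors set the leading gene of miR396 level in apple and pear. miR396 took 36.6% of apple counts against 9.12% in pear, a median of 7.84% and 25.7% in spinach, the next food. The lowest were miR159, miR403, miR171 and miR390, and 6 met the rule when tomato was left out, but 1 met it with TMM, with poscounts or without the highest genes. miR171, which targets GRAS factors of the meristem, had 16 counts on 5 genes, 0.00755%, against 0.0881% in pear and 0.0419% to 4.73% over the other foods. miR390, which starts the production of trans-acting siRNAs against auxin response factors, had 0 counts in apple. Its share was 0.0468% in pear, 0.105% at the median and 2.45% at most.

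**Figure D3:**
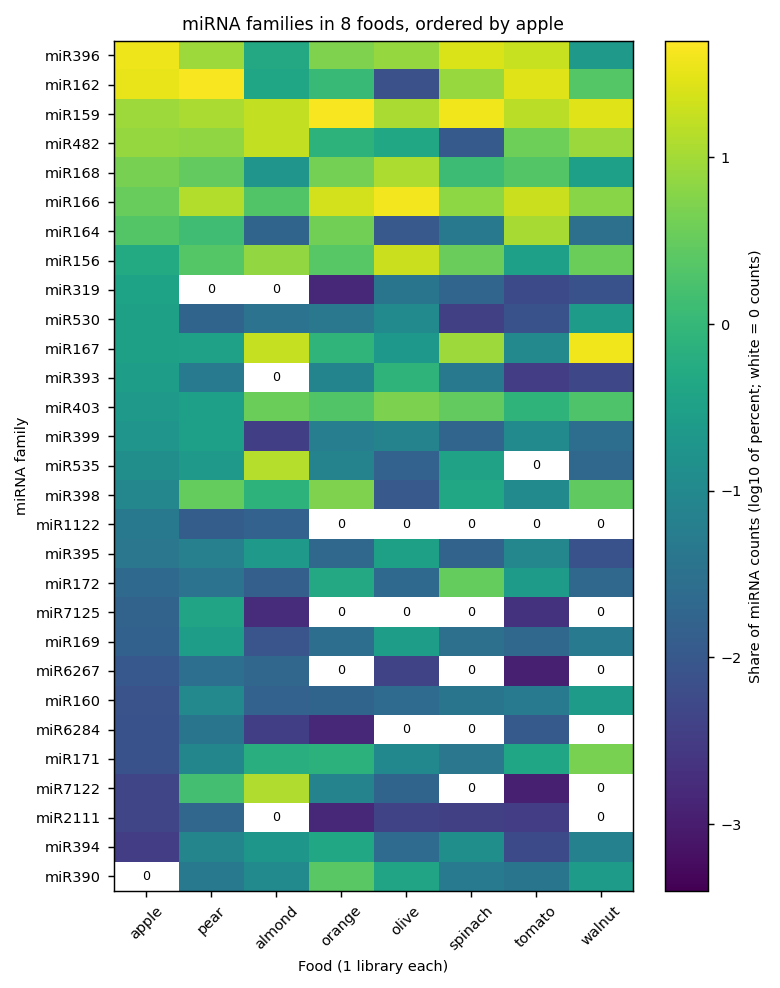
Share of each library's miRNA counts (%, log colour scale) for families in rows and the 8 foods in columns. miR396 is at 36.6% in apple and 9.12% in pear, while miR398 is at 0.0896% in apple and 3.06% in pear.

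Of 12 groups of families formed by kind of target, 8 had a smaller share in apple than at the median of the other foods. The groups were compared on shares only and were not rescaled. Relative to column totals, the scaling of apple against the median food shifted by 1.62 on the log2 scale with poscounts and -2.92 with the deposited factors. Small shortfalls, such as 1.77-fold for the MYB and TCP group, may therefore depend on the scaling. The auxin families, miR160, miR167, miR390 and miR393, were at 0.614% in apple, 0.519% in pear and 3.41% at the median. miR156 and miR535, which act on the SPL factors of phase change, were together at 0.659%, against 2.55% in pear, a median of 3.58% and 21.0% in almond. MIR156b had 571 counts in apple, 0.269%, where olive held 17.5%, and MIR156e (G1:34960231-34960314, plus strand) had 495 counts, 0.233%, where almond held 5.90%. The MYB and TCP group was at 9.43%, against 11.2% in pear and 16.7% at the median. The families aimed at NAC, NF-YA, GRAS, AP2 and F-box genes were at 2.17%, close to pear at 1.87% and below the median of 3.32%.

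The nutrient families differed among themselves in apple. The sulfate and phosphate group, miR395, miR399, miR827 and miR2111, had counts on 13 of its 40 genes and held 0.231%, against 0.383% in pear and 0.347% at the median. Of these miR399, which targets the ubiquitin conjugase PHO2, had 0.184% in apple, below pear at 0.297% and above the median of 0.0597%, and MIR399b carried 342 of its counts. miR827 had 1 count in apple and 1344 in orange. The copper group, here miR397 and miR398 because no miR408 gene was among those annotated, held 0.0906% in apple, 3.06% in pear and 0.802% at the median. Families numbered 6000 or above had counts on 14 of their 65 genes, 97 counts in all. They made up 0.0458% of apple, 1.98% of pear and 14.96% of almond.

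Apple and pear were compared gene by gene over the 70 genes with at least 10 counts in the pair, a call being at least 4-fold with an exact interval for the ratio that excluded 1. Apple was higher for 9 of 70 genes, 12.9%, and lower for 33 of 70, 47.1%. The median gene had 0.303 times its pear share in apple. The interval lay below 1 for 44 genes, above 1 for 19 and held 1 for 7. Shares of a library sum to a fixed total, and MIR396 (ENSRNA050003821) alone had 77241 counts in apple and 9409 in pear, a ratio of 4.22 (exact interval 4.13 to 4.31). Without the 3 highest genes of each library the counts were 15 higher and 21 lower. With the deposited factors 3 were higher and 47 lower.

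**Figure D4:**
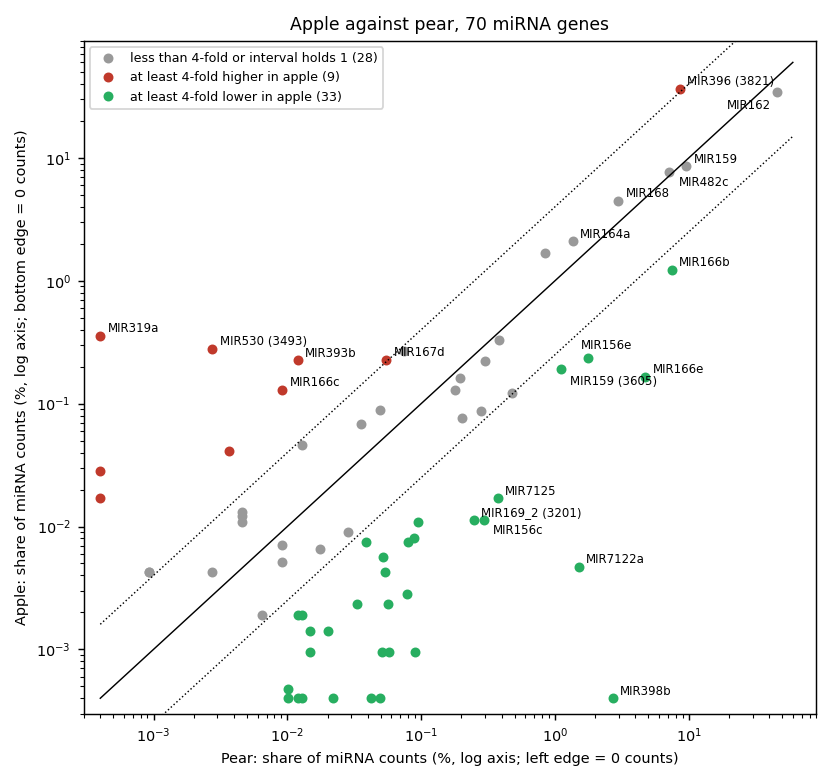
Share of miRNA counts in apple (%, log axis, y) against pear (%, log axis, x) for the 70 genes with at least 10 counts in the pair, where the solid line is equality, the dotted lines mark 4-fold and genes with 0 counts sit on the edge. The 33 genes called lower in apple lie below the lower dotted line and the 9 called higher above the upper one.

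Among the 9 higher genes, MIR319a, MIR530 (ENSRNA050003493) and MIR393b were called under each of the 4 other scalings tried. The others included MIR166c, MIR167d and MIR164b. MIR166c had 275 counts in apple and 10 in pear (ratio 14.1). MIR167d had 483 counts in apple and a ratio of 4.14 (exact interval 3.16 to 5.51). MIR164b had 36 counts against 0, which was 6.17-fold with pear set to 3 counts. For MIR167d, whose family targets auxin response factors, the direction turned with the deposited factors, to -0.028 on the log2 scale.

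Of the 33 lower genes, 22 were called under every scaling in which they were tested. MIR7122a was among these, but it was itself removed with the highest genes, so totals without them did not test it. MIR398b (G4:19261810-19261934, minus strand), of the family that lowers copper superoxide dismutase mRNA, had 0 counts in apple and 2967 in pear, and was at least 1924-fold lower in apple. It had 204 counts in almond, 126 in orange and 7 or fewer in the other foods, so pear stood apart here rather than apple. MIR7122a had 10 counts in apple, 1644 in pear and 6821 in almond, and was 320-fold lower in apple than in pear. It belongs to a family that in rose family species targets pentatricopeptide repeat genes. The remaining genes with the largest differences were low in apple and moderate in pear. MIR156g had 2 counts in apple and 98 in pear, MIR171d had 2 and 63, MIR394b, of the family that targets an F-box gene of the meristem, had 2 and 56, and MIR395f had 0 and 54, at least 35.01-fold lower. MIR166e, of higher count, had 350 in apple and 5178 in pear, 28.8-fold lower. For 7 of the 33 genes apple had no count at all.

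Pear and apple had the same leading gene in some families and different ones in others. Over the 20 families with more than 1 gene and at least 10 counts in each, the leading gene was shared in 10. With the other foods apple shared it in 9 of 17 families for olive, 7 of 15 for spinach and 7 of 18 for orange. For almond it was 5 of 14, for walnut 5 of 13 and for tomato 3 of 14. In pear the leading gene was that of apple in miR159, miR160, miR164, miR169, miR396, miR399, miR482, miR535, miR6267 and miR7122. In miR166 the lead was MIR166d in apple, with 51.1% of the family, and MIR166b in pear, with 57.0%. In miR398 it was MIR398 (ENSRNA050003695) in apple, with 97.4%, and MIR398b in pear, with 89.0%. In miR156 it was MIR156b in apple, with 51.2%, and MIR156e in pear, with 76.5%. In miR393 it was MIR393b in apple, with 76.7%, and MIR393a in pear, with 75.0%. Reads of both fruits were placed on the peach genome, so a leading gene is the peach copy that their reads matched, and which apple or pear locus made them was not measured.

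The miR395 genes differed between apple and pear at the scale of a locus. In peach 15 of them stand within 60458 bases (G1:27720832-27781289). Apple had 89 counts on 3 of the 15, led by MIR395m, and pear had 72 on 6, led by MIR395f, with 54 counts in pear and 0 in apple. Only 1 of the 15 was counted in both fruits.

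Of the 112 genes without a count in apple, 90 were counted in another food. Some were abundant elsewhere. MIR482f, MIR171h, a pair of MIR390 genes and mir-156 (ENSRNA050003808) had 0 counts in apple and at least 10 in 4 or more other foods. mir-156 had 1 count in pear, 29 in olive, 101 in almond, 127 in orange, 209 in tomato, 337 in spinach and 1178 in walnut. In the other direction, MIR319b, with 4 counts, and MIR6283, with 1, were counted in apple alone. Apple and pear shared 75 genes, 77.3% of the genes of apple and 71.4% of those of pear, and 19 genes were counted in all 8 foods.

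Across whole profiles, pear was the nearest food to apple. The overlap of a pair of foods, the sum over genes of the smaller of their shares, was 67.0% with pear, 59.8% with tomato, 41.02% with spinach, 21.8% with olive and with orange, 21.2% with walnut and 13.2% with almond. Spearman's rho across genes, given as a description since genes of 1 library share its depth, was 0.56 with pear over 127 genes and 0.02 to 0.24 with the others. Of the 15 highest genes of apple, 10 were among the 15 highest of pear and 5 to 7 among those of each other food. Almond, of the same botanical family, had the smallest overlap.

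**Figure D5:**
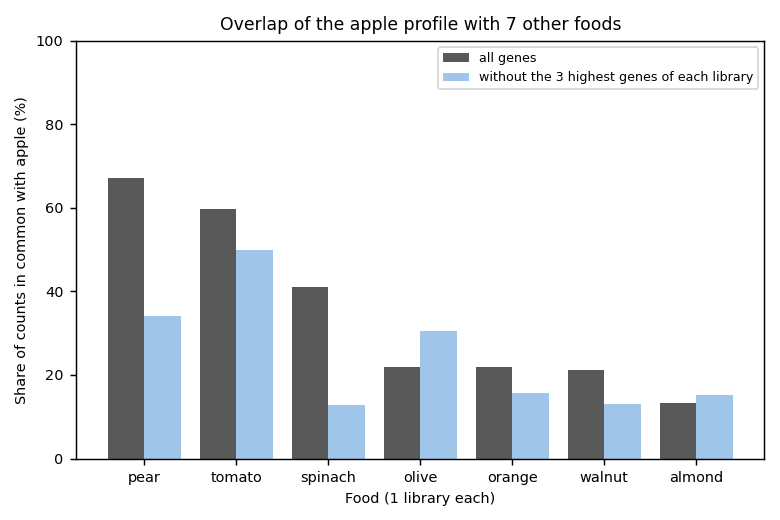
Overlap of each food with apple (%, y axis; the sum over genes of the smaller share) for 7 foods, with dark bars for all genes and light bars for the genes left once the 3 highest of every library were removed. Pear leads with all genes at 67.0%, and tomato leads at 49.9% in the light bars.

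The lead of pear in overlap rested on the highest genes. Without the 3 highest genes of each library, 11 genes in all, apple kept 14372 counts, 6.78% of its library, and pear 18072, 16.6%. The overlap with pear then was 34.1%, behind tomato at 49.9% and near olive at 30.5%. In this remainder miR164 took 31.3% of apple counts and 8.39% of pear counts, with 46.5% in tomato and 16.9% in orange. The miR398 family took 1.32% of apple counts and 18.4% of pear counts. miR530 held 4.74% of the remainder in apple and 0.105% in pear, miR393 4.33% and 0.288%, and miR319 5.31% in apple. The rank correlation stayed highest with pear, at 0.45.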

How the data were processed

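Small RNA of 8 foods, 1 library each, was sequenced by the authors on a HiSeq2500 after the NEBNext Small RNA kit. After skewer had removed the adapters, reads between 15 and 30 bases long were placed by the authors on the NCBIv2 build of peach with ShortStack, and htseq-count assigned them, by strand, to annotated miRNA genes. The deposited counts are whole raw reads per miRNA gene. The deposited normalized signal is the same counts divided by DESeq2 factors of the authors, and was used only as an alternative scaling. Versions of these tools: not given in the sources used here. Reads of every food were matched to peach, so miRNAs far from a peach copy went uncounted. Input was 0.1 g for fruit and vegetables and, per the labels, 0.5 g for nuts, though the study's methods give a smaller mass for walnut.

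Shares of the column total were computed with Clopper-Pearson 95% intervals, and apple over pear ratios with exact conditional binomial intervals (Python 3.11.15, scipy). A gene with 0 counts was set to 3 counts for a fold. This is a convention that lies slightly inside the exact limit, which gives a smaller fold. The ratio intervals were tested on data simulated with counting error alone, so variation between libraries was not part of that test. Alternative scalings used edgeR 4.0.16 TMM, DESeq2 1.42.0 poscounts (R 4.3.3), the deposited factors, and totals without the 3 highest genes of each library. Other alternatives were genes named for peach alone, a minimum of 10 counts, and leaving out each food. No count model was fitted, since no food has replicates. Genes named in the text are those ranked 4 to 15 in apple outside miR482, up to 8 each of those called highest or lowest in apple, the 6 with the largest and the 6 with the smallest apple to pear ratio among genes with at least 50 counts in the higher library, those counted in apple alone, and those at 0 in apple with at least 10 counts in 4 or more other foods. MIR166e, MIR164b, MIR399b and the leading genes of families were named after their values were seen. Members, lists and groups of families by target were chosen with earlier results of these data known.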

Additional observations from a re-analysis of the deposited data

How the results depend on the processing

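Scaling was the choice that moved the counts most. Genes highest in apple numbered 7 with column totals, 12 without the 3 highest genes of each library and 0 with the deposited factors. The deposited factors set MIR396 (ENSRNA050003821) level in apple and pear, so they could not call that gene highest. Genes lowest in apple numbered 3, against 0 without the highest genes, with TMM, with poscounts and with peach-named genes alone, and 7 with the deposited factors. Families highest in apple numbered 3, against 5 without the highest genes, 6 with TMM, 7 with poscounts and 0 with the deposited factors. Families lowest numbered 4, against 1 without the highest genes, with TMM, with poscounts and with peach-named genes, and 9 with the deposited factors. Genes at least 4-fold higher than in pear numbered 9, against 15 without the highest genes, 17 with poscounts and 3 with the deposited factors, and genes at least 4-fold lower numbered 33, against 21 without the highest genes. Overlap with pear was 67.0%, 34.1% without the highest genes and 80.0% with peach-named genes. Of the 97 genes, 46 passed a minimum of 10 counts.

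Leaving out 1 other food at a time gave 7 to 10 genes highest, 3 to 5 lowest, 3 to 6 families highest and 4 to 6 lowest. Of the log2 values of the 34 named genes against pear and the median food, 14 of 68 turned direction with the deposited factors, 9 of 68 with poscounts, 3 of 68 with TMM and 6 of 52 without the highest genes. Genes called highest or lowest were checked against the median food and 4-fold calls against pear, and 3 turned. MIR167d against pear was at -0.028 (log2) and MIR1122 against the median food at -0.027 with the deposited factors, and MIR159 (ENSRNA049996936) against the median was at 0.31 with poscounts. Against pear, genes called highest also turned with the deposited factors: MIR482c to -1.98, MIR393a to -1.14 and MIR1122 to -0.24. Of those called lowest, MIR403 turned to 0.085 and MIR159 (ENSRNA049996936) to 0.35 against pear with TMM. Relative to column totals, the apple over pear ratio of all genes shifted on the log2 scale by -2.08 with the deposited factors, 0.51 with TMM, 1.05 with poscounts and 1.29 without the highest genes. No paired analysis was possible because each food has 1 library. Below about 10 counts, depth limits any statement on a single gene.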
